A study of Mus musculus with 8 samples.

Results

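The genes described here are 45 RNA-binding proteins that set splice choice: the heterogeneous nuclear ribonucleoproteins (hnRNPs), the serine/arginine-rich (SR) proteins with the related TRA2 proteins, and the MBNL, CELF, RBFOX, STAR, ELAV and TIA regulators. They were chosen by symbol from a list of such factors, and all 45 were found among the 24421 gene symbols counted in each library. The RNA came from splenic naive CD4+ T cells of C57BL/6 mice, 6 to 8 weeks old and stated to be male. One genotype in the labels is wild type at Pcbp1 with the Cd4-Cre transgene (Pcbp1+/+Cd4-Cre), and the other is Pcbp1fl/flCd4-Cre, in which the Cre recombinase, driven by Cd4 regulatory sequence, deletes floxed Pcbp1 in T cells from thymic development on. PCBP1, also called hnRNP E1, is a KH-domain protein that binds C-rich RNA. The comparison asks how these transcripts differ in cells in which Pcbp1 was targeted for deletion. The design text names the controls only as wild type.

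The titles name 4 libraries E1KO and 4 E1WT, and the genotype field of every sample states the opposite of its title. The titles define the groups here, so every direction would turn if the genotype fields were right. Pcbp1 stood at 38.3, 38.8, 39.8 and 41.8 CPM (counts per gene, scaled to a common library total) in the libraries titled E1KO and at 222, 243, 227 and 203 CPM in those titled E1WT, which goes with the titles. The Pcbp1 transcript was thus lower in E1KO-titled libraries but not absent. Each library held 28264655 to 36738202 gene counts. Xist, the RNA of the inactive X chromosome, was at 365 to 425 CPM in E1KO-titled and at 0.55 to 2.89 CPM in E1WT-titled libraries, while the Y-linked Ddx3y was at 52.0 to 57.5 and 103 to 115 CPM, so genotype and this sex-linked signal cannot be told apart. The CD4 T cell marker list was present in all libraries, with a summed level of 2751 to 2977 CPM in E1KO-titled and 3147 to 3388 CPM in E1WT-titled libraries over 6 of 9 markers found. Of these 6, 1 rose (Cd5), 3 fell (Cd3g, Cd4 and Lck), and Cd3d and Cd3e did not pass. Markers of several other cell types were higher in the E1KO-titled libraries. Erythroid genes summed to 175 to 215 against 65.1 to 89.0 CPM (5 of 7 tested members rose, and 4 globin genes are at 0 in every library). Monocyte and macrophage genes summed to 144 to 167 against 104 to 121 CPM (5 of 10), and NK cell genes to 140 to 159 against 101 to 109.6 CPM (5 of 8). Dendritic cell genes summed to 453 to 539 against 363 to 439 CPM (8 of 10). Plasma cell genes summed to 830.1 to 1037 against 571 to 780.1 CPM (1 of 6, Jchain). The sums of B cell, CD8 T cell and neutrophil genes overlapped between the titles. The part of other cells in the differences given here was not tested. In bulk RNA, fewer cells of a type and less RNA per cell cannot be told apart.

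Splice choice in a pre-mRNA is set by proteins that bind short sequences in exons and introns. SR proteins bind exonic enhancers through RNA recognition motifs and recruit the splicing machinery through their arginine/serine-rich domains, whereas many hnRNPs bind silencers and oppose exon inclusion, with effects that depend on where they bind. Many of these factors limit their own amount by splicing a poison exon into their own transcript, which sends it to nonsense-mediated decay. In T cells, hnRNP L-like protein (HNRNPLL) is known for the skipping of CD45 exons on activation. CELF2 and hnRNP U are known for T cell isoforms of kinases and of MALT1. The counts used here are per gene, so they give the amount of each factor's transcripts and not the splicing that it carries out.

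Of the 45 members 6 rose and 5 fell in E1KO-titled libraries, and 34 did not pass the test (edgeR quasi-likelihood test, Benjamini-Hochberg adjusted p under 0.05 over 13333 genes tested). All 45 members passed the filter on low counts. The called share of 24.4% was close to the 23.3% of all genes tested, and the same held for each direction, at 13.3% of members against 12.2% of all genes for rises and 11.1% against 11.1% for falls. The median log2 fold was 0.02 over the members and 0.01 over all genes. The members that rose were Hnrnpab, Tra2b, Hnrnpa0, Hnrnph2, Hnrnpd and Ptbp1, and those that fell were Rbfox2, Ptbp2, Hnrnpdl, Hnrnpr and Celf1. Changes were small, with a median absolute log2 fold of 0.14 over the members and 0.18 over all genes, and only the barely expressed Rbfox2 differed by over 2-fold. The libraries of the titles did not overlap for 12 members (26.7%), against 26.0% of all genes.

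**Figure D1:**
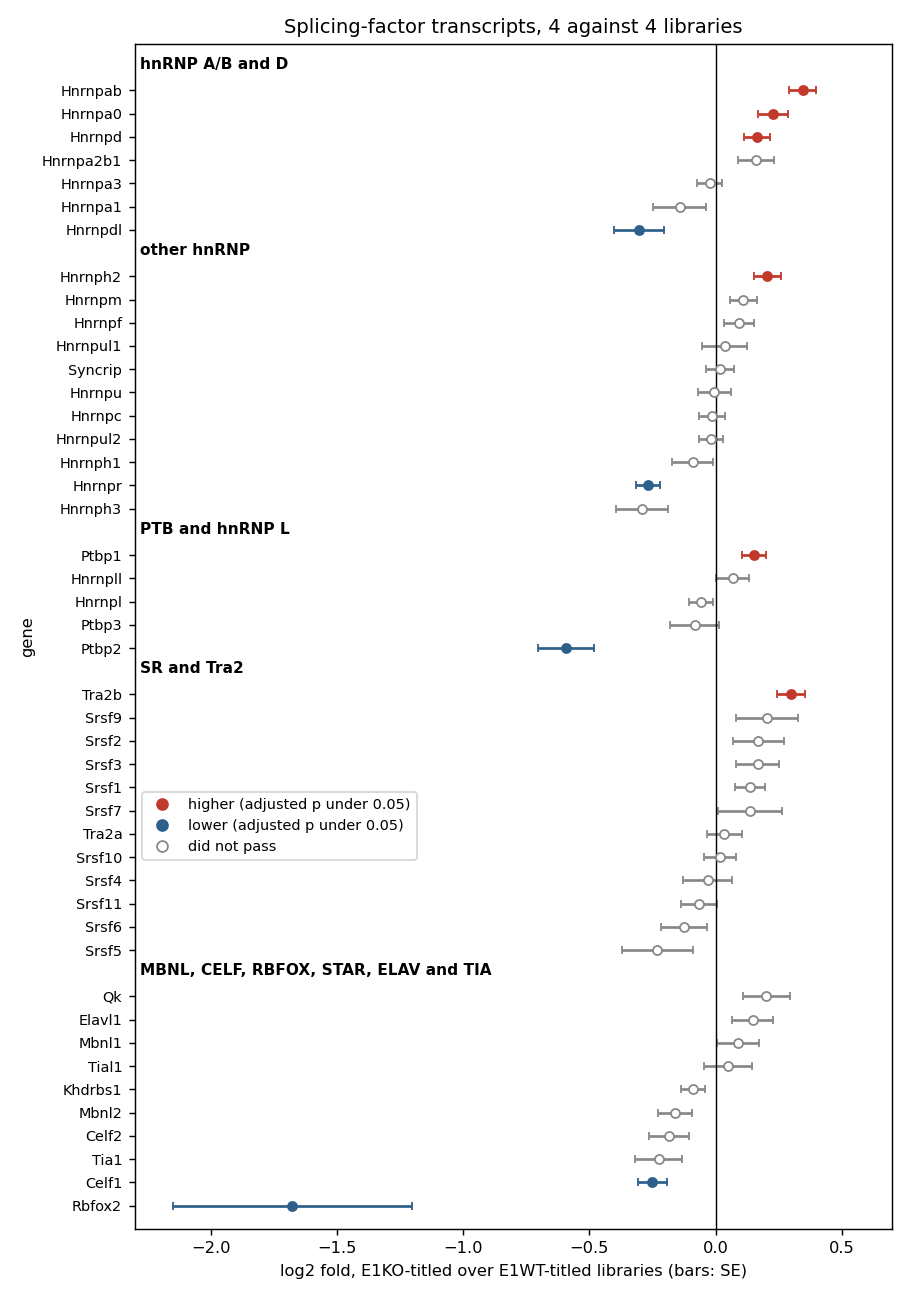
Log2 fold of E1KO-titled over E1WT-titled libraries (x axis, bars show the standard error) for all 45 splicing factors, grouped by family. Filled points passed the test, with 6 to the right and 5 to the left of 0, and the other 34 lie between -0.29 and 0.20.

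Of the 11 calls, those of Hnrnpab, Tra2b, Ptbp2 and Celf1 held under all 18 alternative settings, which covered scaling, filter, test, exon length, replicate numbers and libraries left out. The sequence just upstream of the start site is shown for 3 of these, the genes of this group for which RefSeq (GRCm38.p6) gives 250 bases with at most 15 bases inside an annotated exon. The fourth, Ptbp2, has its RefSeq start inside a longer exon of the GENCODE M21 annotation. Capitals mark each match to the GC box (GGGCGG) or to the CCAAT box, spelled as in its name, on either strand. The windows lie at chr11:51606882-51607131 on the minus strand for Hnrnpab, at chr16:22266006-22266255 on the minus strand for Tra2b and at chr2:90940147-90940396 on the plus strand for Celf1.
Hnrnpab: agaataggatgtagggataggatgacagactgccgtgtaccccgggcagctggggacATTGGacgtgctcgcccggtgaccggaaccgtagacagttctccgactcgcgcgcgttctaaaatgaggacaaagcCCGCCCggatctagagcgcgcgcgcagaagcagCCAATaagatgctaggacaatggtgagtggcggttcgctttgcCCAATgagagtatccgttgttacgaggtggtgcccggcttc
Tra2b: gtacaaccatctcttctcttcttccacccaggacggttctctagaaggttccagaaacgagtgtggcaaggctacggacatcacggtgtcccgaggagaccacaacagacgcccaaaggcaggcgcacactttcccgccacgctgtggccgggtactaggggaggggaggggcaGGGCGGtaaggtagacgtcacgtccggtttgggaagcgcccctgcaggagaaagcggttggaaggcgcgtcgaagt
Celf1: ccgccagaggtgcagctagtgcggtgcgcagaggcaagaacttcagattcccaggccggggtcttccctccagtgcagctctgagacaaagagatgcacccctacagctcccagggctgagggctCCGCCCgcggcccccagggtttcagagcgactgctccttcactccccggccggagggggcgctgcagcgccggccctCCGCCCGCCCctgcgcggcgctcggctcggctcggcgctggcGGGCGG
The Hnrnpab window held 3 CCAAT boxes and 1 GC box, the Tra2b window 1 GC box and the Celf1 window 4 GC boxes, of which 2 overlap. Among the 40 members with a promoter in the table, 30 (75.0%) held a GC box in these 250 bases, against 57.7% of 10095 genes tested here and 32.9% of all 27025 promoters. A CCAAT box was found in 19 (47.5%), against 36.1% and 34.5%. The ETS core (CCGGAAG, either strand) was found in 6 members (15%), against 13.8% of tested genes and 7.05% of all promoters. An E-box (CACGTG) was found in 4 (10%), against 8.24% and 6.05%. These matches describe the letters in the window and no binding was measured.

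The hnRNP A/B and D proteins package nascent transcripts and often repress exons. Of these 7 genes 3 rose and 1 fell. This count and those of the families below are to be read against all genes tested, of which 12.2% rose and 11.1% fell. No family was tested as a set. Hnrnpab stood at 648, 634, 584 and 647 CPM in the libraries E1KO 1 to 4 and at 491, 498, 479.9 and 509 CPM in E1WT 1 to 4. Every E1KO-titled library lay above every E1WT-titled one, with means of 629 ± 30.2 and 495 ± 12.4 CPM (SD, n = 4 each). The log2 fold was 0.35 ± 0.05 (SE, edgeR adjusted p = 0.00085), the largest rise among the members. Hnrnpab (chromosome 11, 51600100 to 51606847, minus strand, GRCm38) shares 809 bp of exon with Phykpl on the opposite strand. Strand use in the counting is not given in the sources used here, so reads from that stretch cannot be assigned to either gene.

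Hnrnpa0, an AU-rich element binder encoded by a single exon, was among the most abundant members. Its libraries stood at 854, 904, 940.3 and 971 CPM under E1KO and at 756, 796, 826 and 757 CPM under E1WT, again with no overlap (log2 fold 0.23 ± 0.06, edgeR adjusted p = 0.016). The call ended without E1KO 4 or E1WT 1 (log2 fold 0.20 and 0.21, adjusted p = 0.056 and 0.055). Hnrnpd, also called AUF1 and known for binding AU-rich elements in cytokine mRNAs, stood at 354, 365, 376 and 379 against 321, 346, 326 and 323 CPM (log2 fold 0.16 ± 0.05, edgeR adjusted p = 0.037). The titles did not overlap, but the call ended without any 1 of E1KO 2, E1KO 3, E1KO 4, E1WT 1, E1WT 3 and E1WT 4 (log2 fold 0.15 to 0.17, adjusted p = 0.068 to 0.11). It also ended with no filter on low counts (adjusted p = 0.062) and with the trend of each library with exon length removed (adjusted p = 0.069).

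Hnrnpdl, a close relative of Hnrnpd that also lies on chromosome 5, went the other way. It stood at 119, 144, 155 and 137 CPM in E1KO-titled and 165, 202, 169 and 148 CPM in E1WT-titled libraries (log2 fold -0.30 ± 0.10, edgeR adjusted p = 0.045). The titles overlapped, as E1KO 3 lay above E1WT 4. The call ended without any 1 of E1KO 1, E1KO 2, E1KO 4, E1WT 1, E1WT 2 and E1WT 3 (log2 fold -0.32 to -0.21, adjusted p = 0.081 to 0.11), and with no scaling beyond the library total (-0.24, adjusted p = 0.12). Hnrnpa2b1, an abundant splicing repressor, had a log2 fold of 0.16 ± 0.07 (adjusted p = 0.12). It passed without E1KO 1 (0.21, adjusted p = 0.034) or without E1WT 2 (0.21, adjusted p = 0.044), with no scaling beyond the library total (0.22, adjusted p = 0.048), and without E1KO 1 and E1WT 4 together (0.17, adjusted p = 0.0498). Hnrnpa3 did not pass under any setting. Hnrnpa1, usually one of the abundant hnRNPs, had only 8.85 ± 0.772 and 9.79 ± 0.716 CPM here. Of its 75-base stretches 27.0% also occur in transcripts of 14 other annotated genes. Reads aligned to several places were not counted to genes, so the Hnrnpa1 level is uncertain. Hnrnpa3, with a like share of 26.1%, stood at 212 ± 6.72 and 215 ± 6.27 CPM. The cause of the low Hnrnpa1 level was not tested.

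Of the 11 members of the hnRNP C, F/H, M, R and U families, which cover roles from pre-mRNA packaging to mRNA transport, 1 rose and 1 fell. Hnrnpr, an RNA-binding protein closely related to Syncrip (hnRNP Q), stood at 141, 151, 145 and 153 CPM in E1KO-titled and 174, 178, 181 and 178 CPM in E1WT-titled libraries. No library of E1KO reached the lowest of E1WT (log2 fold -0.27 ± 0.05, edgeR adjusted p = 0.0023). Hnrnpr has 22199 bp of annotated exon, the second longest among the members. When the trend of each library with exon length was removed, the log2 fold was -0.11 ± 0.09 and the adjusted p 0.36. It kept its call under the other 17 settings.

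Hnrnph2, an X-linked member of the H/F group that binds G-runs, stood at 125, 128, 119 and 131 against 109, 113, 109.8 and 104 CPM (log2 fold 0.21 ± 0.05, edgeR adjusted p = 0.016). All E1KO-titled libraries lay above all E1WT-titled ones. Of its 75-base stretches 11.1% also occur in 1 other annotated gene. Its call ended without E1KO 4 (log2 fold 0.19, adjusted p = 0.057). Xist, also X-linked, separated the titles as well, and the part of the sex-linked signal in this rise was not tested. Hnrnph3 was the uncalled member with the smallest p, at 11.2, 11.0, 11.8 and 10.7 against 12.8, 12.9, 12.8 and 16.1 CPM, with no overlap and a log2 fold of -0.29 ± 0.10 (adjusted p = 0.059). It passed with the exon-length trend removed (-0.37, edgeR adjusted p = 0.022) and in DESeq2 (-0.30, adjusted p = 0.039). Without E1WT 4, its highest library, the log2 fold was -0.20 (edgeR adjusted p = 0.16). Hnrnpu, a nuclear matrix protein and one of the most abundant members at 979.6 ± 69.0 and 983 ± 61.5 CPM, had a log2 fold of -0.005 ± 0.07. Hnrnpc, Hnrnpf, Hnrnph1, Hnrnpm, Hnrnpul1, Hnrnpul2 and Syncrip did not pass, and their log2 folds ran from -0.09 (Hnrnph1) to 0.11 (Hnrnpm). Hnrnpm passed with no scaling beyond the library total (0.17, edgeR adjusted p = 0.042). Of the 75-base stretches of Hnrnpf 55.9% occur in other annotated transcripts, the largest share among the members.

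The polypyrimidine tract-binding (PTB) proteins repress exons flanked by pyrimidine-rich sequence, and PTBP2 is the form best known from neurons. Ptbp2 was low and lower still in E1KO-titled libraries, at 14.3, 16.0, 16.5 and 14.8 CPM against 22.4, 28.5, 20.9 and 21.0 CPM. The highest E1KO-titled library lay below the lowest E1WT-titled one, and E1WT 2 stood above the other 3 of its title. The means were 15.4 ± 1.04 and 23.2 ± 3.57 CPM (log2 fold -0.59 ± 0.11, edgeR adjusted p = 0.0028). Without E1WT 2 the log2 fold was -0.47 and the adjusted p 0.0033. This was the largest fall among members with over 1 CPM.

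Ptbp1, the general PTB protein, represses a PTBP2 exon whose skipping sends that transcript to decay. It stood at 404, 416, 422 and 424 CPM in E1KO-titled and 379, 383, 374 and 363 CPM in E1WT-titled libraries, without overlap (log2 fold 0.15 ± 0.05, edgeR adjusted p = 0.039). This small rise lost its call without any 1 of E1KO 2, E1KO 3, E1KO 4, E1WT 1, E1WT 3 and E1WT 4 (log2 fold 0.14 to 0.16, adjusted p = 0.075 to 0.11), and with DESeq2 size factors (adjusted p = 0.053), no filter (0.071), the exon-length trend removed (0.065) or E1KO 1 and E1WT 4 both left out (0.057). Ptbp1 shares 983 bp of exon (20.7%) with 3 genes on the opposite strand. Ptbp3, the form prominent in blood cells, had more reads than Ptbp1 in every library, at 644 ± 72.0 and 683 ± 82.5 CPM, and did not pass (log2 fold -0.08 ± 0.10, adjusted p = 0.58). Per kilobase of annotated exon, Ptbp3 stood at 91.2 and Ptbp1 at 79.1 CPM in E1WT-titled libraries, and at 86.2 and 87.8 CPM in E1KO-titled ones.

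Hnrnpl and Hnrnpll, which both act on CD45 exons, did not pass. Hnrnpl stood at 476, 478, 457 and 462 against 488, 481, 489 and 491 CPM, with no overlap but a log2 fold of -0.06 ± 0.05 (edgeR adjusted p = 0.4). Hnrnpll stood at 60.2, 68.3, 62.8 and 66.0 against 58.0, 63.0, 66.2 and 58.4 CPM, and the titles overlapped (log2 fold 0.07 ± 0.06, adjusted p = 0.49). Neither passed under any of the 18 alternatives.

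**Figure D2:**
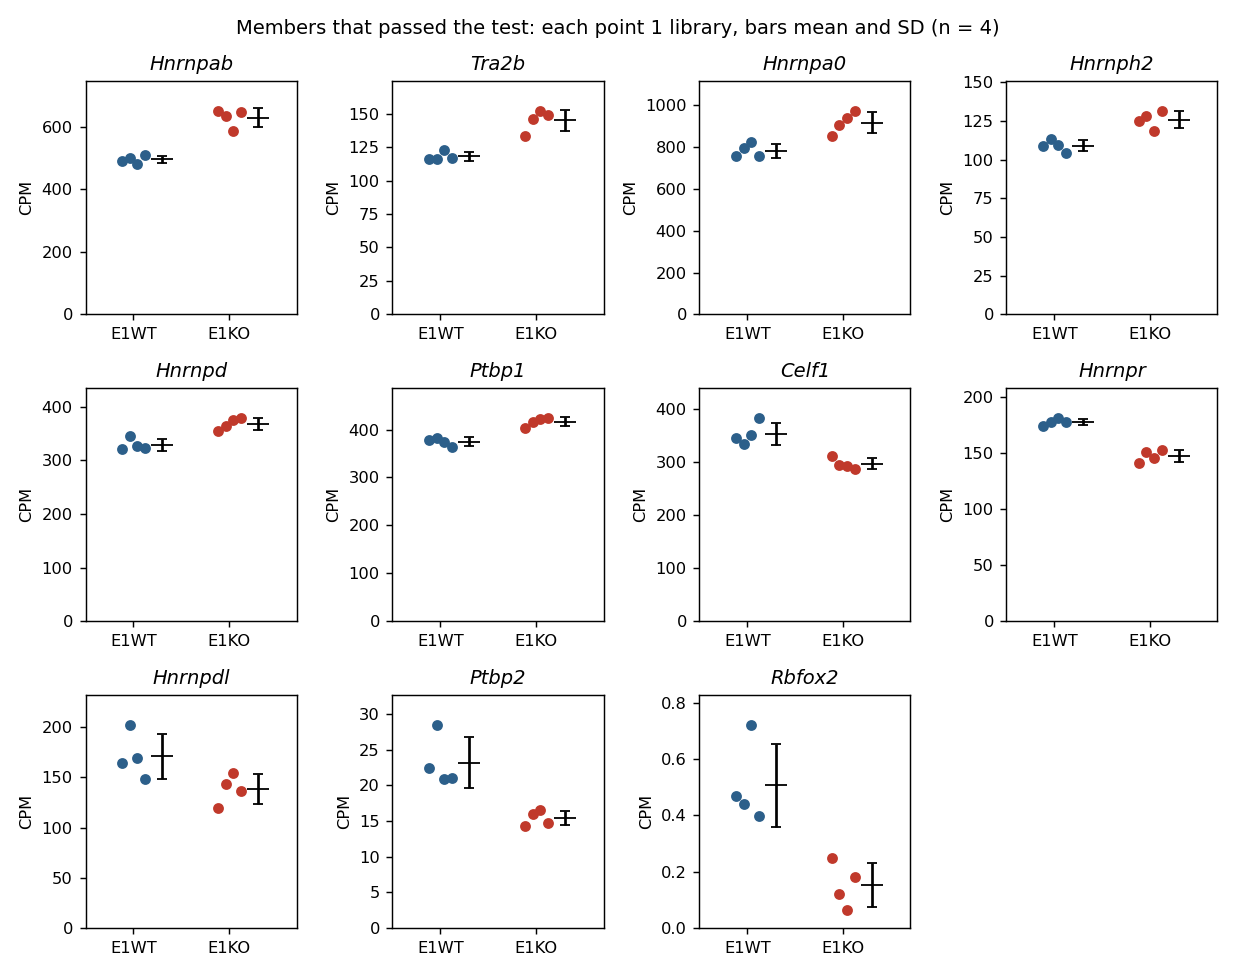
Level in CPM (y axis, from 0) of the 11 members that passed the test, with 1 point per library and the mean with its SD beside the points. The points of the titles overlap for Hnrnpdl alone, and Rbfox2 lies below 1 CPM in every library.

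Among the 12 SR and TRA2 genes 1 rose and 0 fell in edgeR. The gene that rose was Tra2b, which binds GAA-rich exonic enhancers. It stood at 134, 146, 152 and 149 CPM in E1KO-titled and 116, 116, 123 and 117 CPM in E1WT-titled libraries. The lowest E1KO-titled library, E1KO 1, was above the highest E1WT-titled one, E1WT 3 (log2 fold 0.30 ± 0.05, edgeR adjusted p = 0.0025). Its paralog Tra2a did not pass, at 50.6 ± 3.81 and 49.4 ± 2.11 CPM (log2 fold 0.03 ± 0.07, adjusted p = 0.75).

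Of the SR genes, Srsf1, the prototype of the family, had a log2 fold of 0.14 ± 0.06 (adjusted p = 0.12), and passed only with no scaling beyond the library total (0.20, adjusted p = 0.039). Srsf3, a small SR protein that also acts in mRNA export, had 0.17 ± 0.09 (adjusted p = 0.19), and passed only without E1WT 2 (0.24, adjusted p = 0.047). Srsf9 had 0.20 ± 0.12 (adjusted p = 0.26), and passed only without E1KO 1 (0.31, adjusted p = 0.036). Srsf2, Srsf4, Srsf5, Srsf6, Srsf7, Srsf10 and Srsf11 passed under none of the settings, and their log2 folds ran from -0.23 (Srsf5) to 0.17 (Srsf2).

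The SR and TRA2 genes shared a pattern between libraries of a title. E1KO 1 was the lowest of its title for 12 of 12 SR and TRA2 genes, and E1KO 3 was the highest for 9. In the other title, E1WT 4 was the lowest for 9 and E1WT 2 the highest for 10. Over all 45 members, these 12 included, E1KO 1 was the lowest for 26 and E1KO 3 the highest for 18. E1WT 4 was the lowest for 20 of the 45 and E1WT 2 the highest for 24. Srsf5 ran over 182, 241, 278 and 242 CPM in E1KO-titled and 271, 343, 275 and 218 CPM in E1WT-titled libraries, and Srsf7 over 106, 135, 154 and 127 and 113, 147, 118 and 97.7 CPM. The coefficient of variation within a title (E1KO, then E1WT) was 16.8% and 18.5% for Srsf5 and 15.4% and 17.3% for Srsf7, against 2.21% and 0.86% for Hnrnpl. Apart from the barely expressed Rbfox2, the largest values among the members were those of Srsf9 (18.2%), Srsf5 and Srsf7 in E1KO-titled libraries. In E1WT-titled libraries they were those of Srsf5 and Srsf7. Not all of the family varied so much, and its variation was not tested against that of the other members. Tra2b (5.48% and 2.83%) and Srsf1 (5.39% and 5.17%) varied less, and Hnrnpdl (10.8% and 13.2%) and Ptbp3 (11.2% and 12.1%) more than those 2. The same libraries stood at the ends of the exon-length trend, where the Spearman correlation over 13258 genes between exon length and each library's deviation from the mean log2 CPM was 0.22 in E1KO 1 and 0.32 in E1WT 4, -0.32 in E1KO 3 and -0.26 in E1WT 2. At the exon length of Srsf5 the fitted trend was -0.06 to 0.05 on the log2 scale over the 8 libraries. The long Mbnl1 and Celf2 were highest in E1KO 1 and in E1WT 4 of their titles.

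**Figure D3:**
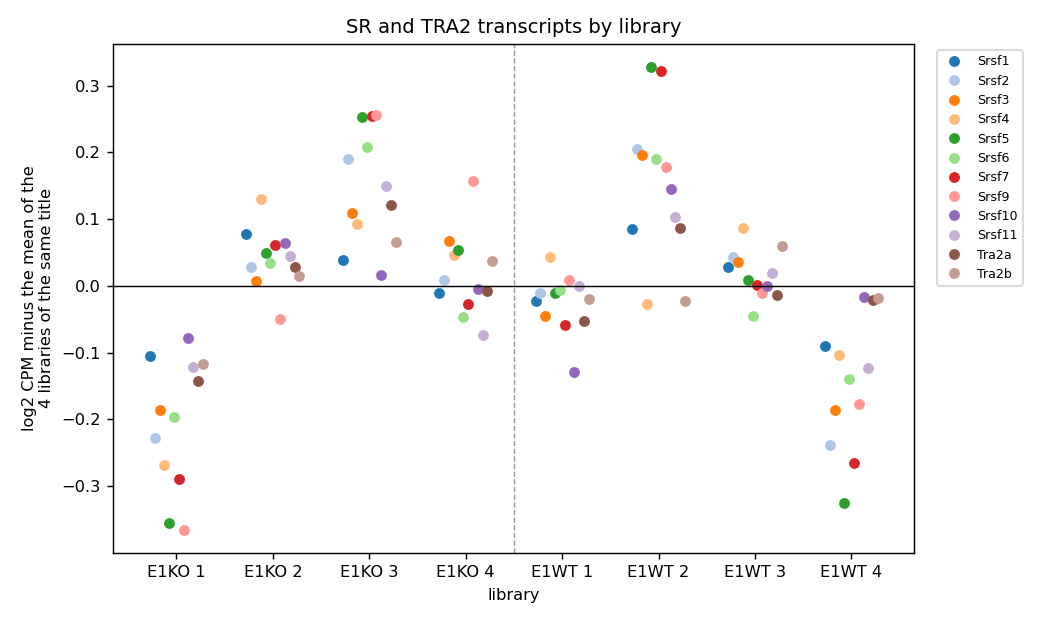
Log2 CPM of 12 SR and TRA2 genes in each library (x axis) after subtraction of the gene's mean over the 4 libraries of the same title. All points of E1KO 1 lie below 0 and all of E1KO 3 above it, and the points of E1WT 4 lie below 0.

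The last group holds the MBNL, CELF, RBFOX, STAR, ELAV and TIA regulators, some of them known for tissue-specific splicing. Celf1, which binds GU-rich elements and promotes decay of mRNAs in T cells, stood at 312, 294, 293 and 287 CPM in E1KO-titled and 346, 333, 350.4 and 382 CPM in E1WT-titled libraries. No E1KO-titled library reached the lowest E1WT-titled one (log2 fold -0.25 ± 0.06, edgeR adjusted p = 0.0086). Its relative Celf2 stood at 366, 341, 299 and 311 against 369.9, 339.7, 370.2 and 418 CPM, overlapped and did not pass (log2 fold -0.19 ± 0.08, adjusted p = 0.11). Celf2 has the longest annotated exons of the members, 25884 bp. Once the length trend was taken out, its log2 fold was 0.0051 (edgeR adjusted p = 0.95). It passed without E1KO 1 (-0.24, adjusted p = 0.042) and without E1KO 1 and E1WT 4 together (-0.19, adjusted p = 0.045).

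Rbfox2, which binds UGCAUG elements, was barely detected. It had 9, 4, 2 and 6 reads in the libraries E1KO 1 to 4 and 13, 16, 20 and 14 in E1WT 1 to 4, and the counts did not overlap. The fitted log2 fold of -1.68 ± 0.47 (edgeR adjusted p = 0.025) rests on these few reads, and the call ended without any 1 of E1KO 2, E1KO 3, E1KO 4, E1WT 1 and E1WT 3 (log2 fold -1.75 to -1.43, adjusted p = 0.056 to 0.082). It also ended with no filter on low counts (adjusted p = 0.067).

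Mbnl1, which sets developmental splicing patterns, was the member with the most reads, at 1628 ± 148 and 1531 ± 144 CPM (log2 fold 0.09 ± 0.08, adjusted p = 0.47). Qk, a STAR-family protein that binds ACUAA elements, had a log2 fold of 0.20 ± 0.09 (adjusted p = 0.15). With the exon-length trend removed, Mbnl1 and Qk passed as higher, at 0.21 ± 0.04 (edgeR adjusted p = 0.0011) and 0.27 ± 0.05 (adjusted p = 0.0011). Qk also passed without E1WT 4 (0.29, adjusted p = 0.026), without E1KO 1 and E1WT 4 together (0.22, adjusted p = 0.035) and with no scaling beyond the library total (0.26, adjusted p = 0.047). Mbnl2, Khdrbs1 (Sam68), Elavl1 (HuR) and Tial1 did not pass, and their log2 folds ran from -0.16 (Mbnl2) to 0.15 (Elavl1).

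Tia1, which binds U-rich sequence behind weak 5′ splice sites, lies on chromosome 6 from 86404219 to 86433405, 91.1 kb from Pcbp1 at 86524492 to 86526321. It stood at 47.2, 61.3, 57.0 and 45.5 CPM in E1KO-titled and 61.7, 64.8, 60.6 and 59.7 CPM in E1WT-titled libraries. E1KO 1 and E1KO 4 were the low libraries, and E1KO 2 lay within the range of E1WT (log2 fold -0.23 ± 0.09, edgeR adjusted p = 0.097). Of the alternatives, Tia1 passed as lower only without E1KO 2 (-0.31, edgeR adjusted p = 0.034). Without E1KO 4 the log2 fold was -0.16 (adjusted p = 0.26). With the exon-length trend removed it was -0.14 (adjusted p = 0.41).

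Ratios between related factors were compared within each library, where scaling between libraries cancels. Of 10 pairs 6 had ratios that did not overlap between the titles (two-sided exact permutation p = 0.0286 each, the smallest that 4 against 4 libraries allow, adjusted p = 0.048 over the 10 pairs). At this smallest p, the adjusted p is set by how many of the pairs reach it. How often ratios of other gene pairs keep the titles apart was not measured. Of single genes 26.0% did not overlap, and Tra2b, Hnrnpr and Hnrnph2 in these pairs were called on their own. Counts of Srsf2 over those of Srsf5 were 1.14, 1.03, 0.998 and 1.01 in E1KO-titled and 0.792, 0.727, 0.811 and 0.841 in E1WT-titled libraries. On the log2 scale this ratio differed by 0.40, although neither gene passed on its own. The SD of the log2 ratio within a title was 0.087 and 0.090. Srsf2 shares 748 bp of exon (25.3%) with Mettl23 and Mfsd11 on the opposite strand. As strand use in the counting is not given, reads from that stretch cannot be assigned to Srsf2 alone.

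Tra2a over Tra2b was 0.342, 0.352, 0.362 and 0.338 against 0.409, 0.451, 0.397 and 0.417, a log2 difference of -0.26. Mbnl1 over Mbnl2 was 27.1, 25.7, 23.4 and 26.1 against 20.5, 20.7, 23.0 and 22.0, with a difference of 0.25. For both pairs every library of 1 title lay on the same side of all libraries of the other. Hnrnpr over Syncrip, Hnrnph1 over Hnrnph2 and Tia1 over Tial1 were lower in every E1KO-titled library, with log2 differences of -0.29, -0.30 and -0.28.

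The other 4 pairs overlapped between the titles. The log2 difference was 0.23 for Ptbp1 over Ptbp3, -0.13 for Hnrnpl over Hnrnpll, -0.30 for Hnrnpa1 over Hnrnpa2b1 and -0.06 for Celf1 over Celf2 (two-sided exact permutation p = 0.0857 to 0.257, adjusted p = 0.12 to 0.26). Without the length trend 0 of the 10 pairs passed after adjustment, and 4 pairs did not overlap (Tra2a/Tra2b, Mbnl1/Mbnl2, Srsf2/Srsf5 and Celf1/Celf2, exact p = 0.0286 and adjusted p = 0.071 each).

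**Figure D4:**
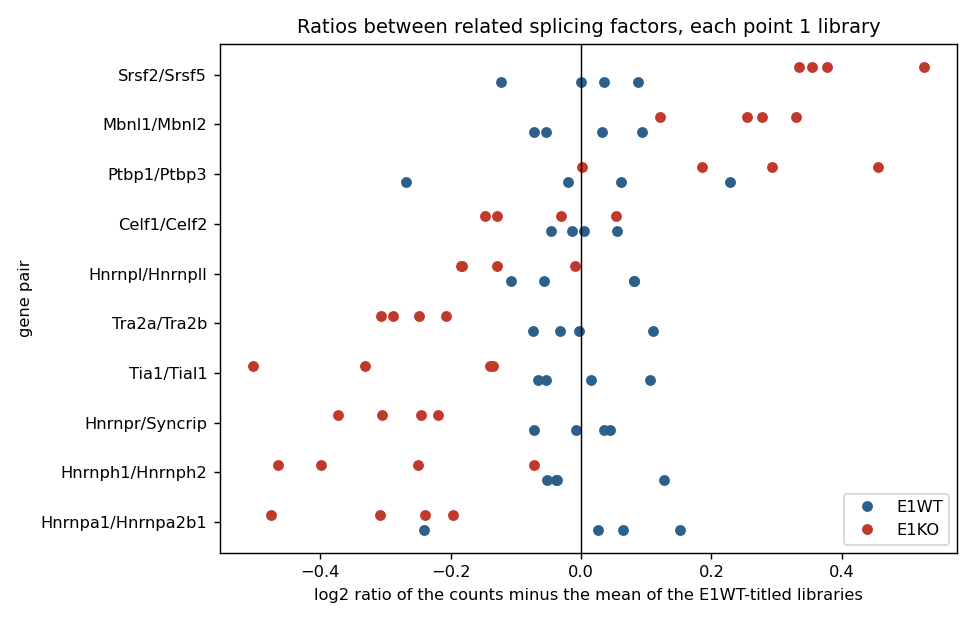
Log2 ratio of the counts of 2 related genes in each library, minus the mean over the E1WT-titled libraries (x axis), for 10 gene pairs. For 6 pairs the E1KO-titled points are apart from the E1WT-titled ones, with Srsf2/Srsf5 farthest to the right at a mean of 0.40.

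Levels per kilobase of annotated exon ordered the members over a wide range. In E1WT-titled libraries Hnrnpf (308 CPM per kilobase), Hnrnpa0 (293) and Hnrnpab (178) stood highest, and Rbfox2 (0.062), Ptbp2 (2.53) and Hnrnpa1 (3.10) lowest. The same 3 genes led in E1KO-titled libraries, where Hnrnpa0 (343) was above Hnrnpf (329). The median member stood at 35.5 CPM per kilobase. The exon length is the union of all annotated exons, so a gene with long, rarely used exons is placed too low. Together the members took 1.27% to 1.32% of gene counts in E1WT-titled and 1.38% to 1.43% in E1KO-titled libraries. After scaling, their summed level was 12989 to 13453 CPM and 13555 to 13949 CPM.

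In the annotation, 29 of the 45 members (64.4%) have at least 1 transcript of the nonsense-mediated decay type, against 28.5% of 12525 other protein-coding genes tested. Members also have more annotated transcripts, with a median of 10 against 5. Among the 2041 other genes with at least 10 transcripts the share was 58.0%. Such a transcript is listed for 11 of 12 SR and TRA2 genes and for 5 of 5 PTB and hnRNP L genes. The deposited counts join all transcripts of a gene, so no share of decay transcripts was measured.

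Genes that act on or beside these factors were counted in 4 lists, to be read against the 23.3% of all genes called, 12.2% as higher and 11.1% as lower. Of 16 kinases, phosphatases and importins of SR proteins 0 rose and 2 fell (12.5%, median log2 fold -0.10). These were Clk3, which phosphorylates SR proteins (-0.26 ± 0.07, edgeR adjusted p = 0.019), and Prpf4b, a spliceosome-associated kinase (-0.18 ± 0.05, adjusted p = 0.021). Clk3 lost its call without E1KO 2 or E1WT 1 (log2 fold -0.24 in both, adjusted p = 0.062 and 0.066), and Prpf4b without E1KO 2, E1KO 4 or E1WT 3 (-0.17, -0.16 and -0.18, adjusted p = 0.056 to 0.073). Both lost it with no scaling beyond the library total (adjusted p = 0.068 and 0.11). Of 51 core spliceosome genes 3 rose and 0 fell (5.88%, median 0.02). They were Prpf19, a ubiquitin ligase of the spliceosome (0.23 ± 0.05, adjusted p = 0.01), Prpf3 (0.28 ± 0.07, adjusted p = 0.013) and U2af2, which binds the polypyrimidine tract (0.26 ± 0.08, adjusted p = 0.031). U2af2 lost its call without any 1 of E1KO 2, E1KO 3, E1KO 4, E1WT 1, E1WT 3 and E1WT 4 (log2 fold 0.22 to 0.27, adjusted p = 0.062 to 0.095).

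The list of other splicing regulators had 2 of 53 tested members higher and 13 lower (28.3% called, against 23.3% of all genes, median log2 fold -0.02). Rbm3, a cold-inducible RNA-binding protein, rose from 346 ± 18.0 to 493 ± 13.9 CPM (log2 fold 0.51 ± 0.05, edgeR adjusted p = 7.7e-05). The helicases Ddx17 and Ddx39b fell by 0.38 ± 0.05 and 0.38 ± 0.06 on the log2 scale, and Srrm2, a large SR-related protein of nuclear speckles, by 0.45 ± 0.09. Among 19 genes of nonsense-mediated decay and the exon junction complex 0 rose and 3 fell (15.8% called, against 23.3% of all genes, median 0.02). Smg1, the kinase that phosphorylates UPF1, went from 827 ± 112 to 462 ± 41.5 CPM (log2 fold -0.84 ± 0.10, edgeR adjusted p = 0.00012), and Dhx34 fell by 0.31 ± 0.06.

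Of the other KH-domain binders of C-rich RNA, Hnrnpk stood at 565 ± 40.2 and 568 ± 41.2 CPM (log2 fold -0.009 ± 0.07, edgeR adjusted p = 0.95). Pcbp2, Pcbp3 and Pcbp4 had log2 folds of -0.10, 0.26 and 0.37, and Pcbp4 alone of these 4 genes passed (adjusted p = 0.013). Among 8 T cell genes with well-known splicing by members, Ptprc, which encodes CD45, fell as a whole gene by 0.32 ± 0.05 on the log2 scale (edgeR adjusted p = 0.0015). Malt1, a paracaspase of receptor signalling, fell by 0.24 ± 0.06 (adjusted p = 0.01) and lost the call once the length trend was taken out (-0.13, adjusted p = 0.16). Cd6 rose by 0.20 ± 0.05 (adjusted p = 0.013) and lost it without E1WT 3 (0.19, adjusted p = 0.051). Cd44, Fyn, Lef1, Map2k7 and Traf3 did not pass, with log2 folds of -0.21 (Traf3) to -0.06 (Cd44). Lef1 and Fyn passed as lower in the DESeq2 test (-0.14 and -0.12, adjusted p = 0.016 and 0.026). Without the length trend Fyn, Map2k7 and Traf3 passed as lower (-0.17, -0.20 and -0.22, edgeR adjusted p = 0.0079, 0.0074 and 0.011). Map2k7 also passed without E1WT 4 (-0.17, adjusted p = 0.047), and Traf3 without E1KO 1 or E1WT 2 (-0.26 in both, adjusted p = 0.038 and 0.036) and without E1KO 1 and E1WT 4 together (-0.21, adjusted p = 0.043).

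Reads that the counting gave to no gene feature made up 15.4% to 17.4% of all counts in E1KO-titled and 19.1% to 22.4% in E1WT-titled libraries (exact permutation test, two-sided, p = 0.0286). These reads can come from introns or from outside annotated genes, and the files do not separate them.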

How the data were processed

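Naive CD4+ T cell RNA (50 ng per library) was sequenced as 75 bp paired ends, per the labels' protocols. Per the submitters' processing notes, TopHat2 2.1.0, HTSeq 0.9.1 and mm10 were used. No source used here gives the annotation, strand setting or filters. The deposited values are raw read counts per gene symbol made by the authors. The 5 closing rows that name no gene (28.2% to 37.0% of counts) were left out. No label ties a library to its own animal. The p-values therefore cover only variation among these 8 libraries, part of which may be technical. Counts within a title differed by more than sampling noise in all 12 pairs (chi-square per degree of freedom 4.10 to 60.1).

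The test over all genes was that of edgeR 4.0.16, run in R 4.3.3 (TMM scaling, count minimum 10, total minimum 15, quasi-likelihood test, Benjamini-Hochberg adjustment over 13333 genes at 0.05). The SE of a log2 fold comes from the F statistic. CPM values are TMM-scaled. Pair ratios used a pseudocount of 0.5. Alternatives used DESeq2 1.42.0 size factors and test, limma 3.58.1 (voom), no scaling, other filters (none, or 1 CPM in 4 libraries), the replicate number as a block, autosomal genes, left-out libraries and gene-wise offsets from a spline (5 degrees of freedom) of log2 CPM on exon length. Exon lengths and positions came from GENCODE M21 on GRCm38, the assembly of mm10 (23376 symbols matched by name, 679 by an older symbol, 366 not). On simulated data (4 against 4 libraries) the fit called 28% of 50 genes changed 1.25-fold and 82% of 50 changed 2-fold. Of its 144 calls 6.94% were of unchanged genes. The simulation changed far fewer genes than were called here (144 calls over 13179 genes, against 3108 over 13333). The cut-off on p after adjustment was therefore stricter in the simulation, and its shares need not hold for these data. Only 3 members differed by 1.25-fold or more, so a member that did not pass is not shown to be unchanged.

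The members and lists were chosen with earlier results of these data known. Values are given for called members, the 2 uncalled members with the smallest p, members called under an alternative, gene pairs and up to 4 called genes of each other list. Hnrnpu, Srsf7 and Mbnl1 levels and the exon-length offsets at Srsf5 were picked for description after their values were seen. Of the 10 marker lists, B cell genes summed to 247 to 261 CPM in E1KO-titled and 229.6 to 261 CPM in E1WT-titled libraries, CD8 T cell genes to 20.3 to 27.9 and 25.4 to 31.0 CPM, and neutrophil genes to 38.8 to 44.0 and 38.5 to 40.6 CPM. The values of 1 called gene of the decay list are not reported here.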

Additional observations from a re-analysis of the deposited data

Results flagged for a closer look

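Among 90 sets of 4 libraries (45 genes in 2 titles) 2 held a library whose gap to its nearest neighbour took a share of the whole range above Dixon's 95% critical value, where chance alone gives such a gap in about 1 of 20 sets. Hnrnph3 stood at 16.1 CPM in E1WT 4, against 12.8 to 12.9 CPM in the other 3 libraries of that title. Tra2b stood at 123 CPM in E1WT 3, against 116 to 117 CPM in the other 3, and this high library still lay below every E1KO-titled one.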

How the results depend on the processing

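Against 6 members higher and 5 lower, no scaling beyond the library total gave 10 higher and 4 lower (71.4% of calls higher, against 54.5%), with the median of all genes moved by 0.06. Over all genes that setting gave 2257 higher and 1046 lower, against 1623 and 1485. The fit with the replicate number as a block gave 2 and 4 members, and 2156 calls over all genes against 3108. Leaving out each library in turn gave 2 to 8 members higher and 3 to 5 lower, with the low ends without E1KO 4 (2 and 3), E1WT 1 (3 and 3) and E1WT 3 (4 and 3). Calls over all genes then ran from 2204 (without E1KO 4) to 3213 (without E1KO 1). Under the block the rises of Hnrnpa0, Hnrnph2, Hnrnpd and Ptbp1 and the fall of Rbfox2 lost their calls (edgeR adjusted p = 0.057 to 0.14), as did Malt1 (0.052), Cd6 (0.060), Clk3 (0.070), U2af2 (0.075) and Prpf4b (0.088). Same-numbered libraries did not deviate together (correlations of -0.10 to 0.01), and 0 of 8 libraries correlated best with their own number, so the numbers were not taken as pairs.

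Without scaling, the 2 calls among SR kinases, phosphatases and importins became 0 and the 3 core spliceosome calls 7. Under the replicate block the SR kinase calls were 0 and the 15 calls of other splicing regulators 9, and leaving out 1 library gave 0 to 4 (0 without E1KO 2, 1 without E1KO 4, E1WT 1 or E1WT 3, 4 without E1WT 2) and 8 to 21 (8 without E1KO 4, 9 without E1WT 3, 21 without E1WT 2). With the exon-length trend removed the 3 decay genes called became 6, the 6 gene pairs 0, and Celf2 turned to 0.0051 from -0.19. The cause of these shifts was not tested. Pcbp1 kept its direction and call in all 18 alternatives. Depth limits Rbfox2, with 2 to 20 reads per library.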
